A study of Mus musculus with 17 samples.

Results

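The genes described here are the major histocompatibility complex (MHC) genes and interferon-stimulated genes of the mouse left ventricle. They were taken by symbol from the deposited table: every protein-coding gene named H2-, Ifi followed by a digit or t, Irf, Gbp, Oas or Isg, together with single genes such as *Stat2*, *Tap1*, *Tap2*, *B2m*, *Cd74*, *Ciita* and *Rsad2*. This gave 89 members of 21798 listed genes. The 80 members with at least 0.5 CPM (a gene's reads scaled to a fixed library total) in 3 or more libraries were tested, among 16218 genes that passed the same filter. Because a gene could pass through the group in which it was high, the members tested are not the whole list, although only 2 of them reached 0.5 CPM in fewer than 3 Sham libraries. The 9 members not tested were *Gbp2b*, *Gbp8*, *H2-Eb2*, *H2-M5*, *H2-Oa*, *Ifi214*, *Ifi27l2b*, *Ifitm5* and *Ifitm6*, whose highest value in any library lay between 0.25 and 1.65 CPM. A few symbols match by letters alone: *H2-Ke6* encodes a steroid dehydrogenase that lies within the MHC, *Irf2bp1*, *Irf2bp2* and *Irf2bpl* encode partners of IRF2 or a relative of them, and *Isg20l2* encodes an exonuclease of ribosome assembly.

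RNA came from the left ventricular apex of 17 male C57Bl6/J mice, 7–8 weeks old at surgery, with 1 library per mouse, 3 weeks after transverse aortic constriction (TAC), a surgical narrowing of the aorta that loads the left ventricle, or after Sham surgery. From 1 week after surgery the mice received 6 oral gavages of 29P, an orally given peptide prodrug that mimics the RGD motif and is directed at αvβ3 integrin, at 50 µg/kg, or matched volumes of saline (Veh). There were 5 mice in Sham Veh, 3 each in Sham 29P and TAC Veh, and 6 in TAC 29P. The paper states that a further TAC Veh library was removed because it clustered with Sham mice. The TAC Veh libraries compared below were thus kept partly by their expression. Whole tissue was extracted, so more cells of a type and more RNA per cell cannot be told apart.

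Class I MHC molecules sit on nearly all nucleated cells and present peptides from inside the cell: a heavy chain pairs with β2-microglobulin, and the TAP transporter supplies the peptides. Class II molecules, whose genes are switched on by CIITA, present peptides taken up from outside and are found mainly on macrophages, dendritic cells and B cells. Type I interferons signal through a complex that holds STAT2 and IRF9 and binds the interferon-stimulated response element (ISRE), whereas interferon gamma acts through gamma-activated sites (GAS). Targets of these factors include antiviral proteins of the IFIT, OAS, GBP and PYHIN families.

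Depth recovered from the smallest step in each library lay between 14.2 and 23.8 M assigned reads (median 20.4 M). Differences below are on the log2(CPM + 0.1) scale with the standard error (SE) of a limma fit over all 4 groups, and a gene is said to rise or fall where its p adjusted by the Benjamini-Hochberg method over all genes tested was at most 0.05. TAC libraries had between 23.6% and 29.4% of their reads from mitochondrially encoded genes and Sham libraries between 29.1% and 40.0%, and under CPM the median gene of all genes tested was higher after TAC by 0.33 in Veh and 0.36 in 29P mice. Scaling by trimmed mean of M values (TMM) brought these medians to 0.02 each, so the counts of called members in each role are given under both scalings. Transcripts typical of atrial muscle were abundant in 3 libraries, namely Sham Veh 19, Sham Veh 20 and TAC 29P 18, and counts without those libraries are given where they moved.

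Levels can be compared between genes per length. Per kilobase of merged exon, *B2m* stood at 319 ± 50.5 CPM (SD, n = 5) in Sham Veh and 492 ± 175 CPM (SD, n = 3) in TAC Veh. *Ifitm3*, which encodes a membrane protein that blocks virus entry, followed at 105 ± 13.4 CPM per kilobase in Sham Veh, and *H2-D1* was next at 65.0 ± 9.45 CPM per kilobase, the order of these 3 being the same in all 4 groups. *Ifitm2* stood at 58.1 ± 9.86, *Cd74*, the invariant chain of class II, at 52.6 ± 13.8 and *H2-K1* at 45.6 ± 6.73 CPM per kilobase in Sham Veh, and these neighbours do not differ beyond their spread. At the other end, *Ciita*, *Irf4*, *Oas1g* and *Gbp10* did not exceed 2.5 CPM in any Sham library, so few reads stand behind each value.

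Position and sequence tie the members into a few clusters. In GENCODE vM21 (GRCm38), 23 members lie on chromosome 17, which carries the MHC, 12 on chromosome 1, most of them PYHIN genes, 12 on chromosome 5 and 7 on chromosome 3, which divide the *Gbp* genes, and 6 on chromosome 19, all of them *Ifit* genes. Reads could be shared with a related or overlapping gene for many, since 62 members have at least one 50-base stretch in common with another gene's transcripts, among them *Gbp10* (84.1% of its 50-base stretches, most often with *Gbp6*), *Oas1a* (57.6%, with *Oas1g*), *Ifit3* (51.2%, with *Ifit3b*) and *H2-T22* (34.5%, with *H2-T10*). The deposited values came out as whole reads (within 0.05 read) in every library that could be judged for 49 members. That count includes *B2m*, for which 0 libraries could be judged. The values of *H2-Q4*, *H2-Q6*, *H2-Q7*, *H2-T22* and *H2-T23* came out whole in 1 library each, so the split of reads within these families is uncertain.

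The first question is whether these genes differed after TAC in mice given vehicle. In TAC Veh against Sham Veh, 41 of 80 members rose and 0 fell, against 23.6% and 1.98% of all genes tested, and the median member was higher by 0.80. All 3 TAC Veh libraries lay above all 5 Sham Veh libraries for 32 members and below them for 0, against 27.6% and 2.23% of all genes. At an unadjusted p of 0.05 or less 64 members were higher and 1 was lower, against 38.4% and 3.49% of all genes. With TMM factors 8 members rose and 2 fell, among them *H2-Ke6*, against 4.62% and 5.48% of all genes, and the median member was higher by 0.48. Library TAC Veh 2 carried much of the count, being the highest of all 17 libraries for 53 members: without it 1 member rose (2.86% of all genes). Without TAC Veh 16 there were 24 (14% of all genes) and without Sham Veh 19 there were 22 (15.5% of all genes). Without the 3 libraries with atrial transcripts 16 members rose (14.4% of all genes). The median member stayed higher by 0.571 to 0.998 when any 1 library was left out.

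The same surgery in mice given 29P was compared within its own pair of groups. In TAC 29P against Sham 29P, 40 of 80 members rose and 0 fell, against 31.5% and 1.15% of all genes, and the median member was higher by 0.64. The groups did not overlap for 18 members with TAC above and 0 with TAC below, against 25% and 1.08% of all genes. At an unadjusted p of 0.05 or less 51 members were higher and 0 lower, against 43.4% and 2.05% of all genes. TMM factors left 7 members that rose and 0 that fell (6.29% and 4.96% of all genes) and a median of 0.33. Here the lowest library, Sham 29P 14, carried the count: it was the lowest of 17 for 37 members and the shallowest, and without it 2 members rose (6.22% of all genes). Without Sham 29P 15 there were 14 (19.8% of all genes) and without TAC 29P 3 there were 24 (20.6% of all genes). Both TAC comparisons called 22 members, 19 were called in Veh mice alone and 18 in 29P mice alone. The matching counts over all genes are not given here, so these counts alone do not set the members apart. The change itself differed between treatments for 0 members by limma after adjustment and for 4 at an unadjusted p of 0.05 or less. TMM factors also gave 0 and 4 (2 positive against 2.2% of all genes, 2 negative against 1.37%).

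A contrast of both TAC groups with both Sham groups, averaged over treatments, was added after the data had been seen. It uses all 17 libraries at once. By it 66 of 80 members rose and 0 fell, against 50.3% and 3.16% of all genes, with a median member higher by 0.74 against 0.34 for all genes. With TMM factors 35 members rose and 1, *H2-Ke6*, fell, against 15.1% and 13% of all genes, and the median member was higher by 0.41. Leaving out any 1 of the 17 libraries gave between 61 and 68 members that rose. All 9 TAC libraries lay above all 8 Sham libraries for 6 members, *Irf8*, *Irf9*, *Oas2*, *Ifit2*, *Ifi203* and *Ifi35*, against 9.52% of all genes.

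**Figure D1:**
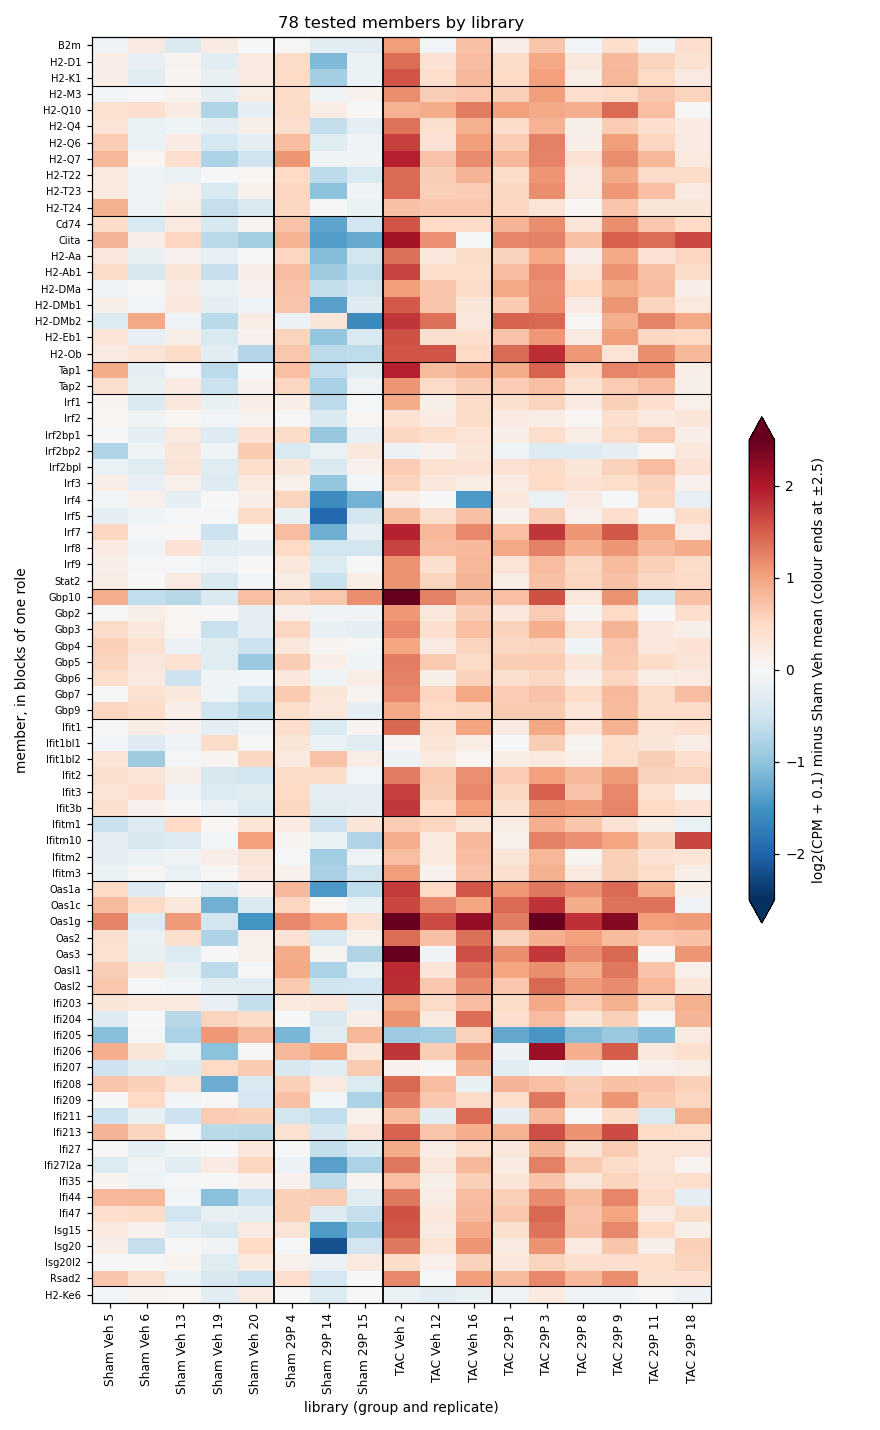
Each row is 1 of 78 of the members tested, in blocks of one role separated by lines, and each column is 1 library; colour gives log2(CPM + 0.1) minus the mean of the Sham Veh libraries, red for higher and blue for lower. TAC Veh 2 is the reddest column and Sham 29P 14 the bluest, and *Ifi205* and *H2-Ke6* run against most rows.

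The animal numbers in the labels fall into 4 runs of consecutive or near numbers, whose meaning is not given, and each run holds both TAC and Sham mice. Among the 29P mice, however, Sham 29P 4 is the only Sham library that shares a run with any TAC library. Run and surgery are therefore hard to separate in the 29P mice. The median member's deviation from its mean over all libraries was above 0 in all 9 TAC libraries, from 0.04 in TAC 29P 8 to 0.87 in TAC Veh 2, and below 0 in all Sham libraries except Sham 29P 4, at 0.06. That single exception exceeded TAC 29P 8 of its own run, and in the other 3 runs every TAC library lay above every Sham library. The median of all genes tested was likewise above 0 in all 9 TAC libraries, from 0.09 in TAC 29P 1 to 0.27 in TAC Veh 2. It was below 0 in all Sham libraries. The members' median lay below that of all genes in TAC Veh 12, TAC 29P 8, TAC 29P 11 and TAC 29P 18. In Sham 29P 4 it lay above that of all genes. With the run as a covariate, 52 members rose in TAC Veh against Sham Veh (20.5% of all genes), 0 rose in TAC 29P against Sham 29P (5.06% of all genes, median member higher by 0.42) and 66 rose in the averaged contrast (50.2% of all genes).

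**Figure D2:**
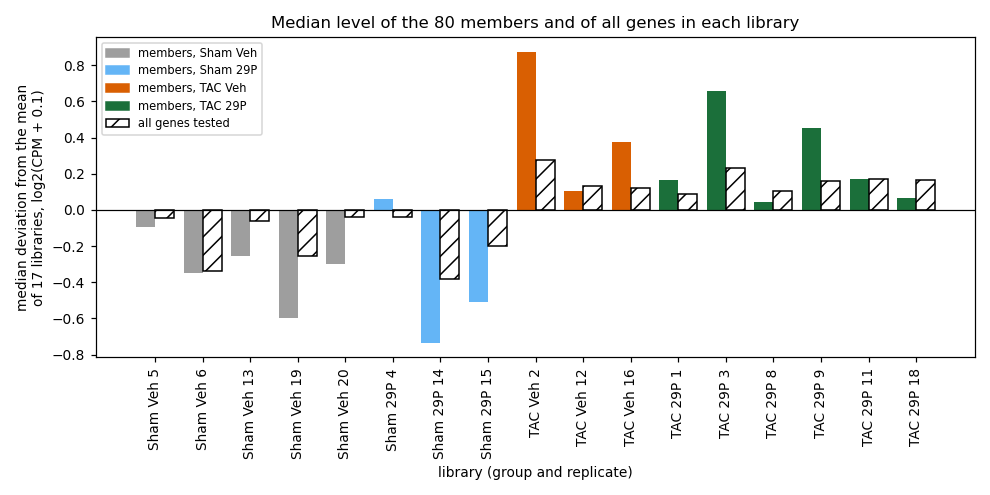
Bars give, for each library, the median over the 80 members (filled, coloured by group) and over all genes tested (hatched) of the deviation from that gene's mean over 17 libraries, in log2(CPM + 0.1). For the members, the 9 TAC libraries lie above 0 and 7 of 8 Sham libraries below it, with TAC Veh 2 at 0.87 and Sham 29P 14 at -0.74. For all genes tested, the 9 TAC libraries lie above 0 and all Sham libraries below it.

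The classical class I heavy chains rose after TAC in both treatments under CPM. *H2-K1*, a heavy chain present on most cells, measured 150, 110, 139, 116 and 154 CPM in Sham Veh and 189, 73.7 and 118 CPM in Sham 29P. It measured 393, 179 and 232 CPM in TAC Veh, and from 151 through a median of 188 to 271 CPM in TAC 29P. All TAC Veh libraries lay above all Sham Veh libraries, while the 29P groups overlapped through the high Sham 29P 4. The change was 0.93 ± 0.27 in Veh mice (SE, adjusted p = 0.021; exact permutation p = 0.0179, two-sided, the smallest that 3 against 5 libraries allow) and 0.71 ± 0.26 in 29P mice (adjusted p = 0.044). *H2-D1*, the second heavy chain, rose by 0.85 ± 0.27 and 0.83 ± 0.26. When 1 library was left out, *H2-K1* stayed called in 7 of 8 fits in Veh mice and 3 of 9 in 29P mice. *H2-D1* stayed called in 4 of 8 and 6 of 9. *B2m* was higher by 0.57 ± 0.21 in Veh mice and 0.43 ± 0.21 in 29P mice, neither past the threshold (adjusted p = 0.056 and 0.11), and rose in the averaged contrast by 0.50 ± 0.15 (adjusted p = 0.0098). With TMM factors none of the 3 passed in either TAC comparison, and *H2-K1* and *H2-D1* passed in the averaged contrast.

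Non-classical class I genes, which encode less variable molecules with more restricted expression, rose in 7 of 8 cases in Veh mice and in 3 of 8 in 29P mice, and all 8 rose in the averaged contrast. The share in 29P mice was near the 31.5% of all genes, against 23.6% in Veh mice and 50.3% in the averaged contrast. With TMM factors 1 passed in Veh mice, 0 in 29P mice and 4 in the averaged contrast. *H2-T22*, a ligand of some γδ T-cell receptors, gave 23.4, 18.6, 17.7, 19 and 20.4 CPM in Sham Veh, and 52.5, 30.5 and 35.5 CPM in TAC Veh. In the 29P mice it gave 27.7, 12.5 and 15 CPM after Sham surgery and 23.0 to 42.6 CPM, with a median of 27.5, after TAC. It rose by 0.96 ± 0.24 in Veh mice, with no overlap, and by 0.80 ± 0.23 in 29P mice, and with TMM factors it was the one gene of this group that passed in Veh mice. *H2-M3*, which presents formylated peptides of bacteria and mitochondria, measured 3.22 to 4.30 CPM in Sham Veh and 8.48, 5.82 and 6.02 CPM in TAC Veh. Its change was 0.81 ± 0.19 (adjusted p = 0.0073), and in 29P mice 0.47 ± 0.18 (adjusted p = 0.0505), just outside the threshold. *H2-Q4* rose in both (0.88 ± 0.23 and 0.59 ± 0.22) and *H2-Q7* rose in Veh mice by 1.28 ± 0.36, both with reads shared among the Q genes. The call of *H2-Q4* in 29P mice was kept in 3 of 9 fits that left out 1 library.

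The peptide transporter genes rose in both treatments under CPM, and with TMM factors 0 of 2 passed in either TAC comparison. *Tap1* gave 17, 7.61, 8.51, 5.58 and 8.83 CPM in Sham Veh, 15, 5.71 and 7.16 CPM in Sham 29P, and 34.2, 15.4 and 16.6 CPM in TAC Veh. In TAC 29P it ran from 10.01 to 24.8 CPM with a median of 18.5. Sham Veh 5 and Sham 29P 4 reached into the TAC range, so neither pair of groups was separated. The changes were 1.21 ± 0.37 in Veh mice (adjusted p = 0.026) and 0.98 ± 0.36 in 29P mice (adjusted p = 0.044). *Tap2* rose by 0.74 ± 0.25 and 0.69 ± 0.24. The calls in 29P mice were kept by each gene in 3 of 9 fits that left out 1 library. With TMM factors *Tap1* passed in the averaged contrast (0.76, adjusted p = 0.018) and *Tap2* did not (0.38, adjusted p = 0.052).

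Class II genes were higher after TAC in both treatments, yet they were called differently. In Veh mice all 9 had a higher mean and 1, *H2-Ob*, rose, against 23.6% of all genes. In 29P mice 9 of 9 rose, against 31.5% of all genes. With TMM factors 0 passed in Veh mice and 1, *Ciita*, in 29P mice, where 0 of all 80 members rose once the animal-number run was added as a covariate and 2 of 80 without Sham 29P 14. The run and the surgery are hard to separate in 29P mice, as described above. The difference of the TAC change passed for none of the 9, even at an unadjusted p of 0.05. *H2-Ob*, a chain of the H2-O modulator of peptide loading, rose by 1.22 ± 0.39 in Veh mice and 1.32 ± 0.38 in 29P mice. *Cd74*, the most abundant of the group, measured 119, 66.1, 102, 64.8 and 90.4 CPM in Sham Veh and 256, 121 and 119 CPM in TAC Veh. In Sham 29P it measured 141, 34.5 and 62.1 CPM, and in TAC 29P from 107 through 146 to 193 CPM. Sham 29P 4 thus exceeded some of the TAC 29P libraries and Sham 29P 14 was the lowest of all 17. The change was 0.85 ± 0.35 in Veh mice (adjusted p = 0.079) and 1.13 ± 0.34 in 29P mice (adjusted p = 0.021). *H2-Aa*, the α chain of the I-A molecule, was separated in Veh mice by less than the last digit printed (43.0 to 60.4 CPM in Sham Veh; 130, 60.4 and 68.2 CPM in TAC Veh) without being called, at 0.71 ± 0.29 (adjusted p = 0.078), and rose by 0.92 ± 0.28 in 29P mice. *H2-Eb1*, the β chain of I-E, rose by 0.94 ± 0.30 in 29P mice and *H2-DMa*, a chain of the peptide editor H2-DM, by 0.86 ± 0.26.

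*Ciita*, the master regulator of class II transcription, was low in all groups. Its libraries held 2.36, 1.43, 1.90, 0.760 and 0.649 CPM in Sham Veh, 2.40, 0.423 and 0.469 CPM in Sham 29P, 5.74, 2.93 and 1.23 CPM in TAC Veh, and 2.18 to 4.22 CPM, median 3.34, in TAC 29P. The TAC and Sham groups overlapped in both treatments. *Ciita* was higher by 1.06 ± 0.52 in Veh mice (adjusted p = 0.13) and rose by 1.89 ± 0.50 in 29P mice (adjusted p = 0.013), where it also passed with TMM factors (adjusted p = 0.038). In the averaged contrast with TMM factors, 8 of the 9 class II genes rose, *H2-DMb1* being the exception.

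The promoters of class II genes carry a CCAAT-containing Y box that the nuclear factor Y complex binds. In RefSeq promoters (GRCm38.p6, 250 bases before to 50 after a start site, every listed start), of which 72 of the 89 members had at least 1, the letters CTGATTGG on either strand were found for 4 of 8 class II genes, against 4.7% of 27025 genes. They were also found for 2 of 3 classical and 3 of 8 non-classical class I genes, for the 1 peptide transporter gene with a promoter and for 1 of 12 transcription factors, 11 of 72 members in all. Stretches of 80 bases from 2 of them are shown, 5′ to 3′ on the gene's strand, because both are class II chain genes with abundant RNA. Capitals mark CTGATTGG, and the windows are chr17:34287830-34287909 (minus strand) and chr17:34305770-34305849 (plus strand).
H2-Aa: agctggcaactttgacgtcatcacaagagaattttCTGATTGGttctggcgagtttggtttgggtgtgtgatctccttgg
H2-Eb1: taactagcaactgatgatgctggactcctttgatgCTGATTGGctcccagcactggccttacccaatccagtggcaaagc
A match of letters is a description of the sequence and was not tied to binding.

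Among the transcription factors, *Irf9* and *Stat2* of the type I interferon signal rose in both treatments. In Veh mice 6 of 14 rose, in 29P mice 8 of 14, and 11 of 14 in the averaged contrast, against 23.6%, 31.5% and 50.3% of all genes. With TMM factors 3 rose and 1 fell in Veh mice, 2 rose in 29P mice and 5 in the averaged contrast. *Irf9*, the DNA-binding partner of STAT2, had a narrow Sham range, from 18.6 to 22.8 CPM in Sham Veh, and 24.4, 16.1 and 20.1 CPM in Sham 29P. It rose to 44.7, 26.8 and 36.1 CPM in TAC Veh and to between 25.5 and 35.2 CPM, median 30.0, in TAC 29P. Each of the 9 TAC libraries lay above each of the 8 Sham libraries. Its change was 0.78 ± 0.16 in Veh mice (adjusted p = 0.0047) and 0.61 ± 0.16 in 29P mice (adjusted p = 0.011), and with TMM factors it passed in Veh mice (0.46, adjusted p = 0.032) and not in 29P mice (0.26, adjusted p = 0.18).

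*Stat2* gave 21.9, 19.4, 22.5, 15 and 18.5 CPM in Sham Veh and 42.1, 28.5 and 34.8 CPM in TAC Veh. It gave 22, 13.1 and 21.9 CPM in Sham 29P and 22 to 32 CPM, with a median of 27.7, in TAC 29P. Both pairs of groups were separated, though narrowly in 29P mice. The changes were 0.85 ± 0.19 and 0.59 ± 0.18, the former also past the threshold with TMM factors.

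*Irf8*, which directs the macrophage and dendritic cell lineages, showed the smallest p of the members in the averaged contrast. It measured 6.69, 5.46, 7.41, 4.78 and 4.95 CPM in Sham Veh and 8.16, 4.16 and 4.16 CPM in Sham 29P. After TAC it measured 18.8, 9.88 and 10.2 CPM in Veh mice and 10.3 to 13.9 CPM, median 11.2, in 29P mice, so that no TAC library reached the Sham range. The change was 1.09 ± 0.24 in Veh mice and 1.14 ± 0.23 in 29P mice (adjusted p = 0.0062 and 0.0037), and it was the one member that passed with TMM factors in both (adjusted p = 0.021 and 0.016). *Irf7*, which amplifies type I interferon production, rose by 1.32 ± 0.38 and 1.28 ± 0.37, from 7.01 to 14.8 CPM in Sham Veh to 39.1, 18.1 and 23.5 CPM in TAC Veh, and passed with TMM factors in the averaged contrast alone. *Irf5*, a mediator of Toll-like receptor signals, rose in 29P mice by 1.15 ± 0.29. *Irf2bpl* was higher by 0.46 in each (SE 0.18, adjusted p = 0.068 and 0.055) and *Irf2bp2* differed by 0.09 ± 0.24 and -0.03 ± 0.23.

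The *Ifit* genes encode proteins that bind foreign RNA lacking a host cap. *Ifit2* gave 33.2, 31.5, 27.7, 19.1 and 18.2 CPM in Sham Veh, 34.6, 34.7 and 24.0 CPM in Sham 29P, and 61.2, 39.8 and 55.5 CPM in TAC Veh. In TAC 29P its values ran from 36.9 through 41.7 to 52.9 CPM. All TAC libraries were above all Sham libraries, yet by a smaller margin in 29P mice. It rose by 1.02 ± 0.21 in Veh mice (adjusted p = 0.0046; with TMM factors 0.043) and was higher by 0.49 ± 0.20 in 29P mice (adjusted p = 0.069). *Ifit3* rose in Veh mice by 1.18 ± 0.30 and *Ifit1* by 0.94 ± 0.23, and *Ifit3b* rose in both (1.09 ± 0.28 and 0.79 ± 0.27). The call of *Ifit3b* in 29P mice was kept in 4 of 9 fits that left out 1 library. The *Ifit1bl1* and *Ifit1bl2* genes were called in neither. In all, 4 of 6 rose in Veh mice, 1 of 6 in 29P mice and 4 of 6 in the averaged contrast. Of all genes, 23.6%, 31.5% and 50.3% rose, so the share in 29P mice was below that of all genes. With TMM factors 1, 0 and 3 rose, against 4.62%, 6.29% and 15.1% of all genes.

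The *Oas* family, whose enzymes make the 2-5A messenger that activates RNase L, together with its *Oasl* relatives, had the largest median change of the role groups after TAC in Veh mice. It rose in 6 of 7 cases in Veh mice (median 1.26), in 3 of 7 in 29P mice (median 0.99) and in 7 of 7 in the averaged contrast. Of all genes, 23.6%, 31.5% and 50.3% rose. With TMM factors 3, 0 and 6 rose, against 4.62%, 6.29% and 15.1% of all genes. *Oas2* gave 14.5, 9.76, 14.6, 6.39 and 12 CPM in Sham Veh and 14.2, 8.39 and 11.9 CPM in Sham 29P. It gave 29.2, 18.4 and 28.6 CPM in TAC Veh and from 16.4 to 22.4 CPM, median 18.7, in TAC 29P, again with all TAC libraries above all Sham libraries. Its change was 1.17 ± 0.24 in Veh mice (adjusted p = 0.0044; with TMM factors 0.011) and 0.75 ± 0.23 in 29P mice (adjusted p = 0.024).

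*Oasl2* rose by 1.24 ± 0.31 and 1.02 ± 0.30, and *Oas1a* by 1.26 ± 0.40 and 1.42 ± 0.39. *Oas1g* was near the limit of counting in Sham Veh, at 1.02, 0.279, 0.888, 0.243 and 0.0689 CPM, against 3.12, 1.36 and 2.08 CPM in TAC Veh. It rose by 2.19 ± 0.55 in Veh mice and was higher by 0.86 ± 0.53 in 29P mice (adjusted p = 0.21), with reads that could belong to *Oas1a*.

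The core of the ISRE, GAAA followed after any 2 bases by a second GAAA, was found on either strand in promoters of 31 of 72 members, against 3.99% of 27025 genes. It was found for 5 of 6 *Ifit*, 4 of 6 *Oas*, 8 of 9 PYHIN and 5 of 5 *Gbp* genes with a promoter, for 2 of 12 transcription factors and for 0 of 8 class II genes. The GAS letters TTCNNNGAA were found for 14 of 72 members, against 9.55% of all genes, and 1 member promoter held overlapping matches of different motifs. The upstream stretches below come from members that rose after TAC in Veh mice, and capitals mark the ISRE letters on either strand. They lie at chr10:128270248-128270327 (plus strand), chr19:34583338-34583417 (plus strand), chr5:120907526-120907605 (minus strand) and chr5:120887614-120887693 (minus strand).
Stat2: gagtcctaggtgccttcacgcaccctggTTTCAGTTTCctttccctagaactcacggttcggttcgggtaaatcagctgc
Ifit3: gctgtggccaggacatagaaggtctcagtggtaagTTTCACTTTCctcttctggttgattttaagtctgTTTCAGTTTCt
Oas1a: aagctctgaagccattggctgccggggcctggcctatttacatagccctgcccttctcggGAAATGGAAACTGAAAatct
Oas1g: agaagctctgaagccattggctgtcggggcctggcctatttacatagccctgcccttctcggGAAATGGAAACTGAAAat
The *Oas1a* and *Oas1g* stretches, aligned at the first matched base, differ at 1 of 78 bases, as neighbouring copies.

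Guanylate-binding proteins, interferon-inducible GTPases that coat pathogen membranes, rose in 7 of 8 cases in Veh mice and in 0 of 8 in 29P mice by limma. Of all genes, 23.6% and 31.5% rose. In 29P mice 0 of 8 also passed at an unadjusted p of 0.05 or less. Without TAC Veh 2, 1 of all 80 members rose in Veh mice. The median change was 0.73 in Veh mice and 0.28 in 29P mice, the second below the 0.36 of all genes. The difference of the change between treatments passed for none of the 8 after adjustment and at an unadjusted p of 0.05 or less for *Gbp10* and *Gbp7*. In the averaged contrast 7 of 8 rose under CPM and 0 under TMM factors, against 50.3% and 15.1% of all genes. TMM factors also left 0 of 8 called in either TAC comparison.

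*Gbp7* measured 24.7, 33.3, 30.7, 23.9 and 18.4 CPM in Sham Veh and 59.5, 37.4 and 50.4 CPM in TAC Veh, with no overlap. In Sham 29P it measured 40.5, 31.9 and 27.2 CPM, and in TAC 29P 35.7 to 45.3 CPM with a median of 41.0. It rose by 0.91 ± 0.18 in Veh mice (adjusted p = 0.0042) and was higher by 0.30 ± 0.18 in 29P mice (adjusted p = 0.20); the difference of the changes was -0.61 ± 0.26 (unadjusted p = 0.028, adjusted p = 1.0). *Gbp10* gave 1.57, 0.477, 0.448, 0.594 and 1.39 CPM in Sham Veh and 12.2, 2.02 and 1.5 CPM in TAC Veh, and 1.21, 1.31 and 1.89 CPM against 0.541 to 2.57 CPM, median 1.38, in 29P mice. The value of 12.2 CPM belongs to TAC Veh 2, and reads of *Gbp10* are hard to tell from those of *Gbp6*. *Gbp10* rose in Veh mice by 1.97 ± 0.58 (adjusted p = 0.022) and was higher by 1.05, no longer called, without TAC Veh 2. In 29P mice it differed by -0.13 ± 0.56. *Gbp2* rose in Veh mice by 0.66 ± 0.17 and *Gbp3* by 0.79 ± 0.25, and *Gbp6* and *Gbp9* by 0.66 ± 0.22 and 0.66 ± 0.24. Of 8 fits that left out 1 library, the call was kept in 7 for *Gbp2*, 4 for *Gbp3*, 3 for *Gbp6* and 2 for *Gbp9*.
Windows of the *Gbp3* (chr3:142559964-142560043) and *Gbp7* (chr3:142530248-142530327) promoters, both on the plus strand, are shown for 2 family members that rose in Veh mice, and capitals mark the ISRE letters.
Gbp3: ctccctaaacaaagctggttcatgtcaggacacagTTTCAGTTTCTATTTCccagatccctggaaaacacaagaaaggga
Gbp7: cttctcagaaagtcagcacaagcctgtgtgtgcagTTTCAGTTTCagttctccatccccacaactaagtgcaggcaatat

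**Figure D3:**
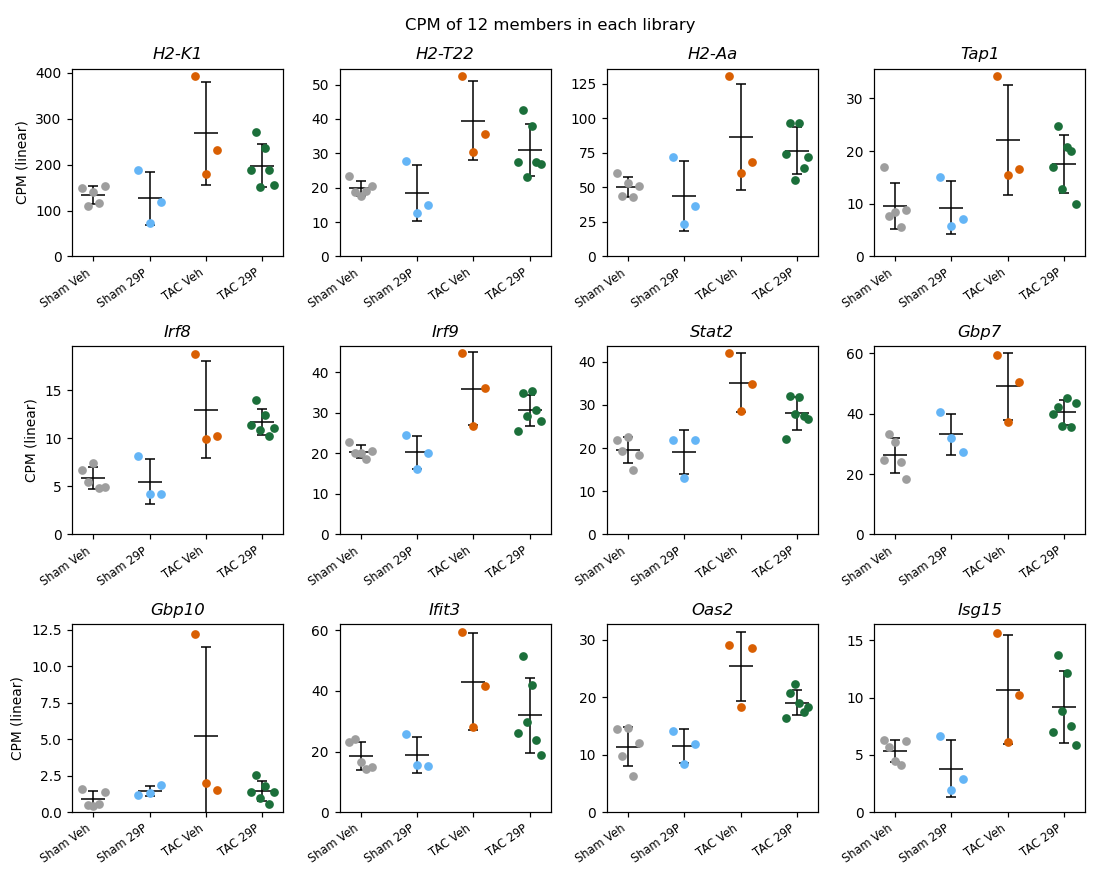
Points are CPM on a linear axis in each library for 12 members, grouped by surgery and treatment, with black bars at the mean and error bars of 1 SD, cut at 0 in *Gbp10* of TAC Veh. *Irf8*, *Irf9* and *Oas2* show all TAC points above all Sham points, and *Gbp10* rests on 1 library at 12.2 CPM.

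The *Ifitm* genes and the remaining interferon-stimulated genes are described next. *Ifitm3* gave 63.2, 72.2, 63.6, 72.9 and 85.5 CPM in Sham Veh and 147, 76.3 and 117 CPM in TAC Veh, which overlapped. It gave 76.9, 40.5 and 51.8 CPM in Sham 29P and 78.6 to 132 CPM, median 94.5, in TAC 29P, which did not. The changes were 0.62 ± 0.21 and 0.83 ± 0.21 (adjusted p = 0.041 and 0.0092). *Ifitm2* rose in both, by 0.59 ± 0.20 and 0.75 ± 0.19, and *Ifitm10* in 29P mice by 1.24 ± 0.37. When 1 library was left out, the call in Veh mice was kept in 2 of 8 fits for *Ifitm3* and 3 of 8 for *Ifitm2*. In 29P mice each of these 2 genes stayed called in 8 of 9 fits. Of 4 *Ifitm* genes tested, 2 rose in Veh mice and 3 in 29P mice, where 23.6% and 31.5% of all genes did, and with TMM factors 0 passed in either. In the averaged contrast 3 rose, and 2 with TMM factors, against 50.3% and 15.1% of all genes.

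Of the 9 other interferon-stimulated genes, 2 rose in Veh mice, 7 in 29P mice and 8 in the averaged contrast. Of all genes, 23.6%, 31.5% and 50.3% rose, so the count in Veh mice was near that share. With TMM factors 0, 4 and 4 rose, against 4.62%, 6.29% and 15.1% of all genes. *Isg15*, a ubiquitin-like modifier, measured 6.27, 5.68, 4.52, 4.11 and 6.19 CPM in Sham Veh and 15.7, 6.16 and 10.2 CPM in TAC Veh. In Sham 29P it measured 6.64, 1.90 and 2.87 CPM and in TAC 29P 5.85 to 13.7 CPM, median 8.15. It was higher by 0.90 ± 0.36 in Veh mice (adjusted p = 0.067) and rose by 1.37 ± 0.35 in 29P mice (adjusted p = 0.0098), where Sham 29P 4 again stood apart from the other two Sham 29P libraries. *Isg20*, an exonuclease of viral RNA, rose in 29P mice by 1.41 ± 0.37, *Ifi27l2a* by 1.27 ± 0.29 and *Ifi27* by 0.79 ± 0.17, and these and *Isg15* were the 4 of this group called with TMM factors in 29P mice. *Ifi27* and *Ifi35* also rose in Veh mice, by 0.52 ± 0.18 and 0.49 ± 0.17. Of 8 fits that left out 1 library, these calls in Veh mice were kept in 2 for *Ifi27* and 3 for *Ifi35*. *Rsad2*, which encodes the antiviral enzyme viperin, was higher by 0.74 ± 0.31 in Veh mice (adjusted p = 0.078) and rose by 0.80 ± 0.30 in 29P mice (adjusted p = 0.047). Its call in 29P mice was kept in 3 of 9 fits that left out 1 library.

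PYHIN genes, which include sensors of DNA, behaved less evenly. In each treatment 2 of 9 rose, and 4 of 9 in the averaged contrast, no larger a share than the 23.6%, 31.5% and 50.3% of all genes that rose, and with TMM factors 0 passed in any of these. *Ifi203* gave 51.2, 49.2, 49.2, 36.2 and 27.3 CPM in Sham Veh, 48.9, 50.6 and 35.3 CPM in Sham 29P, 81.2, 57.6 and 70.8 CPM in TAC Veh and 57.3 to 80.4 CPM, median 70.6, in TAC 29P, with no overlap between TAC and Sham. It rose by 0.74 ± 0.20 and 0.62 ± 0.19. *Ifi204* rose in Veh mice by 0.92 ± 0.29 and *Ifi209* in 29P mice by 0.83 ± 0.30. These calls were kept in 5 of 8 and 4 of 9 fits that left out 1 library. *Ifi205* had a lower mean after TAC without passing, at 11.4 to 51.3 CPM in Sham Veh against 12.7, 13.1 and 35.7 CPM in TAC Veh (-0.40 ± 0.51, adjusted p = 0.56) and by -0.73 ± 0.50 in 29P mice (adjusted p = 0.25). Its highest values came from Sham Veh 19 and 20 and Sham 29P 15, while TAC 29P 18 was the highest of its group, and the first 2 and the last of these are the libraries with atrial transcripts.

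*H2-Ke6*, the steroid dehydrogenase gene inside the MHC, did not follow its neighbours. It gave 24.0 to 33.5 CPM in Sham Veh and 25.5, 23.6 and 25.4 CPM in TAC Veh, a difference of -0.21 ± 0.13 (adjusted p = 0.21) that became a fall of -0.53 with TMM factors (adjusted p = 0.0064). In 29P mice the change was 0.08 ± 0.12, and -0.27 with TMM factors, so its sign depends on the scaling there. Its reads overlap those of another annotated transcript over 70.5% of its 50-base stretches.

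**Figure D4:**
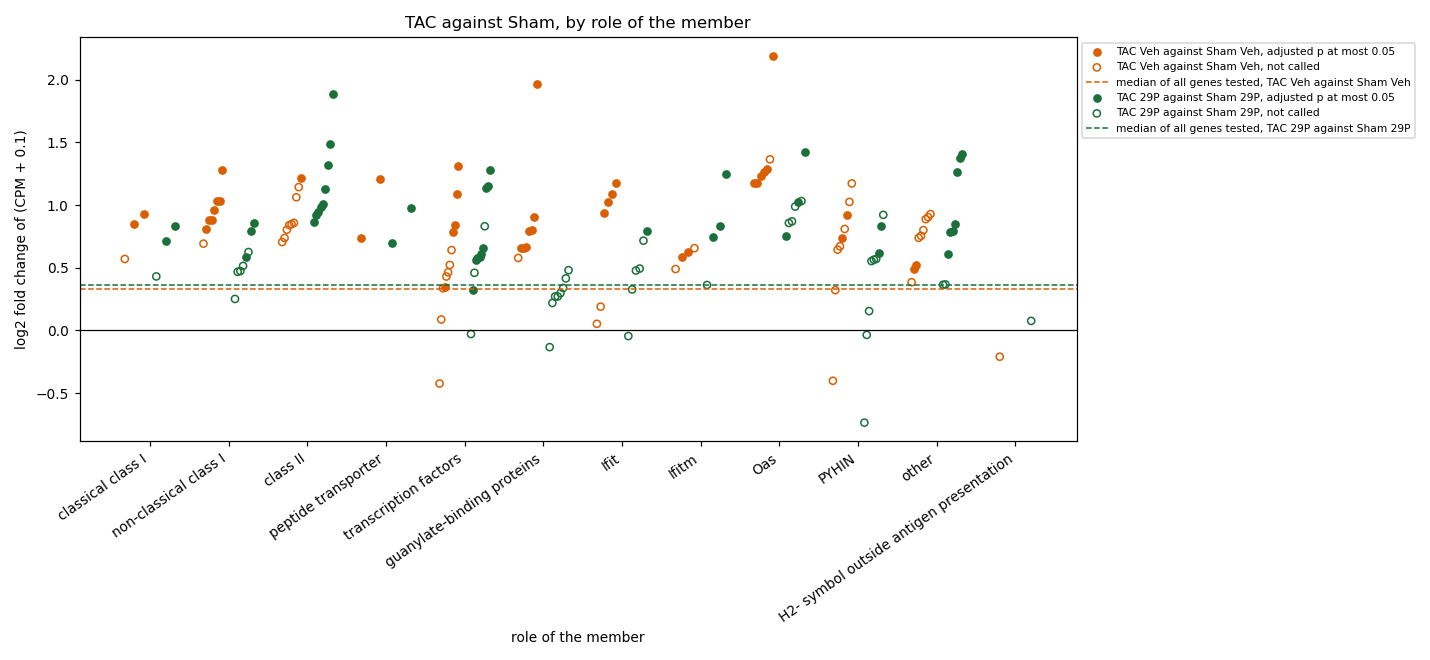
Each point is the TAC change of 1 of 78 members in log2(CPM + 0.1), orange for Veh and green for 29P mice, arranged by role, filled where the adjusted p was at most 0.05; dashed lines give the median of all genes tested (0.33 and 0.36). Class II points are filled in 29P mice and mostly open in Veh mice, and 7 of 8 guanylate-binding proteins are filled in Veh mice and all are open in 29P mice.

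The next question is whether 29P changed these genes within one surgery. In TAC 29P against TAC Veh, 0 of 80 members rose or fell by limma, as did 0% of all genes tested, and TMM factors also gave 0. The mean was lower in TAC 29P for 66 of 80 members, with a median of -0.19 against -0.02 for all genes. That median lay between -0.36 and 0.01 when any 1 library was left out, and TAC Veh 2 is 1 of the 3 TAC Veh libraries. At an unadjusted p of 0.05 or less, 1 member was higher (0.95% of all genes) and 2 were lower (1.11% of all genes). Groups did not overlap, with TAC 29P above, for 2 of 80 members, among them *H2-Ke6*, against 0.839% of all genes. The lower ones were *Gbp10* (-1.30 ± 0.56) and *Gbp2* (-0.34 ± 0.16), both overlapping between the groups.

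In Sham 29P against Sham Veh, 0 of 80 members rose or fell by limma, as did 0% of all genes, likewise with TMM factors, and the median member differed by -0.08 against -0.06 for all genes. At an unadjusted p of 0.05 or less 0 members were higher (1.57% of all genes) and 3 were lower (5.15% of all genes), and with TMM factors 1, *Gbp7*, was higher (3.32%) and the same 3 were lower (4.59%). No member's groups were without overlap in either direction (0.629% and 1.51% of all genes). *Irf5* gave 3.61, 0.988 and 2.94 CPM in Sham 29P against 3.43, 3.73, 4, 3.99 and 5.71 CPM in Sham Veh, a difference of -0.87 ± 0.30 (unadjusted p = 0.0097, adjusted p = 0.72). *Isg20* and *Ifi27l2a* differed by -0.90 ± 0.38 and -0.76 ± 0.30. In all of these the lowest library was Sham 29P 14, and the Sham 29P libraries overlapped those of Sham Veh.

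The difference of the TAC change between the treatments, in which all 4 groups take part, passed for 0 of 80 members after adjustment. At an unadjusted p of 0.05 or less 2 were positive (1.92% of all genes) and 2 negative (0.937% of all genes). The positive ones included *Irf4* (1.25 ± 0.57), a lymphocyte factor at 1.39, 1.61, 1.24, 1.47 and 1.65 CPM in Sham Veh, 2.21, 0.423 and 0.587 CPM in Sham 29P, 1.65, 1.47 and 0.480 CPM in TAC Veh and 1.26 to 2.13 CPM in TAC 29P. The negative ones were *Gbp10* (-2.10 ± 0.80) and *Gbp7* (-0.61 ± 0.26). These comparisons share the TAC and Sham groups, so they are not independent of each other.

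Other genes of the pathway were taken from a list of 55 receptors, kinases, sensors, antigen-processing and further induced genes. Of the 51 tested, 23 rose and none fell in Veh mice, 23 rose and none fell in 29P mice, and 38 rose in the averaged contrast, against 23.6%, 31.5% and 50.3% of all genes that rose. With TMM factors 4 rose and 1 fell in Veh mice, 0 rose and 1 fell in 29P mice, and in the averaged contrast 14 rose and 2, *Canx* and *Psme1*, fell. *Ifngr1*, the ligand-binding chain of the interferon gamma receptor, rose by 0.71 ± 0.15 and 0.64 ± 0.15. *Parp9*, which encodes a member of the PARP family, rose by 0.67 ± 0.14 and 0.65 ± 0.14, and *Eif2ak2*, the kinase PKR, by 0.78 ± 0.17 and 0.52 ± 0.17. None of these 3 passed with TMM factors in either TAC comparison and all 3 did in the averaged contrast. The ligand gene *Ifng*, named here after its values were seen, stayed at or below 0.199 CPM in every library and was not tested, and *Ifnb1* was not analysed here.

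Markers of immune and other cells were followed in the same comparisons. Of all genes, 23.6% rose in Veh mice, 31.5% in 29P mice and 50.3% in the averaged contrast, and with TMM factors 4.62%, 6.29% and 15.1%. The summed level of 11 macrophage markers lay between 348 and 397 CPM in Sham Veh, 226 and 463 CPM in Sham 29P, 524 and 838.5 CPM in TAC Veh, and 508 and 697 CPM in TAC 29P, and 0 of these markers were at 0 throughout a group. Of the 11, 10 rose in Veh mice and 11 in 29P mice, and with TMM factors 2 rose in Veh mice, 9 in 29P mice and 10 in the averaged contrast. The lowest and the highest sum belonged to Sham 29P 14 and TAC Veh 2, the libraries lowest and highest for the members. Of 6 B-cell markers, 1 rose in Veh mice and 6 in 29P mice, and with TMM factors 1 and 4. Their sum ran from 4.05 CPM in Sham 29P to 41.6 CPM in TAC 29P. T-cell markers summed to 1.06 to 3.50 CPM in Sham and 3.20 to 7.68 CPM in TAC libraries, and NK-cell markers to at most 0.705 CPM in Sham and 3.88 CPM in TAC. Among 4 T-cell markers tested, 3 rose in Veh mice and 2 in 29P mice, and with TMM factors 0 and 1. The 1 NK-cell marker tested rose in 29P mice alone, and in neither treatment with TMM factors. Of 6 endothelial markers 2 rose in Veh and 6 in 29P mice, and with TMM factors 0 in either. Of 5 fibroblast markers 4 rose in Veh and 5 in 29P mice, and with TMM factors 1 and 2. Of 6 dendritic-cell markers 2 rose in each treatment and 6 in the averaged contrast. With TMM factors 0 of these rose in Veh mice, 1 in 29P mice and 1 in the averaged contrast. Of 3 neutrophil markers tested 1 rose in each treatment, and with TMM factors 0 in either. Red blood cell transcripts summed to 3082 to 4992 CPM in TAC Veh, against 1018 to 2463 CPM in Sham Veh, 562 to 1680 CPM in Sham 29P and 1036 to 4151 CPM in TAC 29P. All 5 of them rose in Veh mice and 0 in 29P mice, and with TMM factors 0 in either. The ventricular cardiomyocyte markers summed to 29766 to 46627 CPM across the libraries of all groups. Among the 6 tested, 1 fell in Veh mice (1.98% of all genes) and 1 rose in 29P mice. In the averaged contrast 1 rose and 1 fell (3.16% of all genes). With TMM factors 3 fell in Veh mice, 1 in 29P mice and 4 in the averaged contrast, against 5.48%, 4.96% and 13% of all genes. The part of these cells in the members' changes was not tested.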

How the data were processed

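Per the labels, RNA was extracted with TRIzol and libraries of polyadenylated RNA were made with NEBNext Ultra II. The submitters' processing notes name STAR 2.3.7, Partek and the build mm10. The authors deposited CPM (reads per gene scaled to a fixed total) with 0.0001 added; the counting tool and its use of strand are not given in the sources used here. All 17 columns were mapped to samples by title (0 were left unmapped). CPM were not turned back into reads, because 81.3% to 83.5% of low values (up to 20 reads) were whole multiples of the smallest step within 0.05 read. log2(CPM + 0.1) was fitted with limma 3.58.1 (R 4.3.3, trended variance, 4 group means, 13 residual degrees of freedom), after a filter of at least 0.5 CPM in 3 libraries, with Benjamini-Hochberg adjustment over 16218 genes. TMM factors were computed from the CPM (30% and 5% trims). Named members were also tested by exact two-sided permutation. The fit was tested on simulated data.

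Named members were up to 3 of highest mean CPM per role, up to 4 per direction and role with adjusted p of 0.05 or less in each TAC comparison, and up to 5 per direction with unadjusted p of 0.05 or less in the others, with 3 other pathway genes by adjusted p. Of the members tested, 2 are counted but not reported here singly or drawn. The members and lists were chosen with earlier results of these data known. Replicates are separate mice. According to the paper, 3 further libraries of the study had been removed by the authors. For 2 of them the reason was a low number of reads, and the other was the TAC Veh library that clustered with Sham mice. They were not analysed here. Alternatives were other scalings, constants, filters, covariates and libraries left out in turn. Exon lengths came from GENCODE vM21, in which 88 of 89 members had the start given in the table.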

Additional observations from a re-analysis of the deposited data

Results flagged for a closer look

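A test for a single library far from the others of its group (gap over range) needs 4 to 10 libraries. TAC Veh and Sham 29P hold fewer than 4 and were not tested this way, so TAC Veh 2 and Sham 29P 14 could not be flagged. In Sham Veh and TAC 29P the test was run 114 times, of which chance flags about 5%, and 4 values stood apart. *H2-Ke6* measured 34.2 CPM in TAC 29P 3, against 26.0 to 27.8 CPM in the other libraries of that group. *Ifi205* measured 27.9 CPM in TAC 29P 18, a library with atrial transcripts, against 8.69 to 12.5 CPM. *Ifitm10* measured 1.25 CPM in Sham Veh 20, also with atrial transcripts, against 0.403 to 0.536 CPM. *Oasl2* measured 21.0 CPM in Sham Veh 5, against 10.9 to 12.7 CPM.

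The change after TAC differed between 29P and Veh mice at an unadjusted p of 0.05 or less in limma's test of the difference for 4 members, none of which passed the adjustment (adjusted p = 1.0 each). *Irf4* gave 1.25 ± 0.57 on the log2 scale, larger in 29P mice, lay between 0.75 and 1.90 when any 1 library was left out (past that threshold in 8 of 17 fits) and was -0.00185 once the animal-number run was added as a covariate. *Gbp10* gave -2.10 ± 0.80 and *Gbp7* gave -0.61 ± 0.26, both larger in Veh mice. *Gbp10* lay between -2.66 and -1.19 when any 1 library was left out.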

How the results depend on the processing

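No paired analysis was possible because the library numbers in the labels are unique to each mouse, so no groups share replicate numbers; the run of animal numbers was fitted as a covariate instead. In TAC Veh against Sham Veh, 8 members rose and 2 fell with TMM or median-of-ratios factors, 19 rose and 1 fell with totals without mitochondrial genes, 64 and 1 at unadjusted p, 16 rose without the 3 libraries with atrial transcripts, 2 rose and 1 fell when TMM was added to that, and 1 fell with a constant of 1. The median member was 0.48 (either factor) or 0.40 (TMM, without those libraries). In TAC 29P against Sham 29P the numbers were 7 (TMM), 6 (median of ratios), 16 (without mitochondrial genes), 0 (run as covariate) and 9 that rose with 1 that fell (TMM, without those libraries), with medians of 0.33 (TMM) and 0.31 (median of ratios). In the averaged contrast 35 rose and 1 fell with either factor, 28 and 1 with TMM without those libraries, 1 fell without mitochondrial genes or with the run, and the median was 0.41, 0.40 and 0.40. At unadjusted p, 1 rose and 2 fell in TAC 29P against TAC Veh, 3 fell in Sham 29P against Sham Veh, and 2 and 2 differed in the change. With any 1 library left out, 1 to 45 members rose and 0 to 1 fell in Veh mice (medians 0.571 to 0.998), 2 to 50 rose in 29P mice (0.46 to 0.89), 61 to 68 in the averaged contrast (0.63 to 0.86), and 0 elsewhere (medians -0.36 to 0.01, -0.25 to 0.12 and -0.32 to 0.11). *Gbp9* became -0.0482 in Veh mice with TMM without the atrial libraries, and the *Irf4* difference -0.00185 with the run. The cause of these shifts was not tested. Over all genes tested, 4.62%, 6.29% and 15.1% rose with TMM factors in Veh mice, 29P mice and the averaged contrast. With median-of-ratios factors 4.63% of all genes rose in Veh mice and 6.02% in 29P mice. With totals without mitochondrial genes these shares were 10.5% and 13%. With TMM factors and without the libraries with atrial transcripts, 3.55% of all genes rose and 3.61% fell in Veh mice. Where no share over all genes is given here or above, the counts alone do not set the members apart. Values under about 1 CPM rest on few reads.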
